A study of Mus musculus with 2 samples.

Results

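Oxidative phosphorylation is run by 5 protein complexes of the inner mitochondrial membrane, whose subunits are encoded partly by the mitochondrial genome and mostly by genes of the nucleus. Described here is the open chromatin of those nuclear genes in newborn mouse lung. Protein-coding genes on chromosomes 1 to 19, X and Y of GENCODE release M21 were taken if their symbol began with Nduf, Uqcr or Atp5, with Cox4 to Cox8 and any suffix, or was Sdha to Sdhd, Cycs or Cyc1. The rule found 96 gene models with 95 symbols among 21938 protein-coding gene models. Atp5o had 2 models, and Atp5s, a coupling factor that is not a subunit, also met the rule.

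DNase-seq cuts the DNA of nuclei with DNase I, and clusters of cuts mark DNA that is free of a nucleosome, such as active promoters and enhancers. The series held 1 group of 2 biological replicates, whole lung of B6NCrl mice taken postnatally at 0 days, with no genetic change or treatment named. Both biosamples cite the same donor entry, the sex was not collected, and the labels do not say whether a library came from 1 animal or from a pool. With a single group, no difference between conditions could be tested, and the comparisons below set these genes beside all protein-coding genes in the same 2 maps. Lung markers were open (6 of 6, among them Sftpc at 94 and 65, Nkx2-1 at 98 and 90 and Pecam1 at 65 and 54), but so were 68.5% of all protein-coding genes. The markers' median scores, 101.5 and 83, were below those of all open genes, 121 and 101, so that the count is not by itself a sign of lung. A whole organ holds many cell types, so that fewer cells of a type and less open DNA per cell cannot be told apart. How deeply each library was sequenced is unknown. Replicate 1 listed 276892 peaks of 150 bp and replicate 2 listed 188726.

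Complex I (NADH dehydrogenase), complex III (cytochrome bc1) and complex IV (cytochrome c oxidase) pump protons, complex II (succinate dehydrogenase) feeds electrons from the citric acid cycle without pumping, and complex V is the ATP synthase. Most subunits are made in all cells, whereas several subunits of complex IV exist as isoforms that are tied to heart and skeletal muscle, testis, lung or low oxygen. Nuclear respiratory genes are known targets of the activators NRF1, GABP of the ETS family, YY1 and the estrogen-related receptors (ERR), and of the coactivator PGC-1alpha.

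The authors gave each peak a score, a whole number of at most 150. Its meaning is not stated in the labels or headers, and it is used only to describe and rank peaks. Where a gene is followed by a pair of numbers, they are the scores of its strongest peak within 500 bp of any annotated transcription start site (TSS), replicate 1 and then replicate 2. A gene is called open if peaks of both replicates overlapped by at least 1 bp in a site that reached within 500 bp of a TSS. Scores were higher in replicate 1 for 88 of 89 members (98.9%) and for 98.9% of all genes with both scores.

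Promoters of some tissue-restricted isoforms are shown beside those of their ubiquitous partners. In the pairs shown CpG content differs, and it runs with openness in the values below. The stretches run from 120 bases before to 30 bases from the TSS in the direction of the gene, are taken from the RefSeq copy of GRCm38, the assembly that mm10 denotes, and have each CpG dinucleotide in capitals.
Cox4i2 (plus strand, chr2:152754053-152754202): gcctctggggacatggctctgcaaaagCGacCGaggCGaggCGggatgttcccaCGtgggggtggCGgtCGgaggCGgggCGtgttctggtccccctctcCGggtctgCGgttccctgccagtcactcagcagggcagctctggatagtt
Cox4i1 (plus strand, chr8:120668102-120668251): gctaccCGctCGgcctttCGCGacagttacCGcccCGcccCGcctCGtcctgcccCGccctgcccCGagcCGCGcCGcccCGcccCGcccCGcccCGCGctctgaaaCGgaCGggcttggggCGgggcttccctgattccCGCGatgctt
Cox7a1 (plus strand, chr7:30184024-30184173): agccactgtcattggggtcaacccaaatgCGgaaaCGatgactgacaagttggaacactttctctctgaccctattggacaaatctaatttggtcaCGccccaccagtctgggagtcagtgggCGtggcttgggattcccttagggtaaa
Cox7a2 (minus strand, chr9:79759849-79759998): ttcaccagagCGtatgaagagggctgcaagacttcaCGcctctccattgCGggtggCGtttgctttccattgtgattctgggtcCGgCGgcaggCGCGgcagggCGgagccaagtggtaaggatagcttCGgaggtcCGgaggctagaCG
Cox8b (minus strand, chr7:140900417-140900566): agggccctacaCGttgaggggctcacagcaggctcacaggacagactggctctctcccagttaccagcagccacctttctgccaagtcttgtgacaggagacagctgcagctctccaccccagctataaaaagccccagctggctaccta
Cox8a (minus strand, chr19:7217587-7217736): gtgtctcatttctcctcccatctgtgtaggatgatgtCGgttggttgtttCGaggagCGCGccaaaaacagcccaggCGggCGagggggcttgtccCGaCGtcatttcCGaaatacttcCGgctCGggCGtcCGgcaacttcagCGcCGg

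The 150 bases held 11 CpG in Cox4i2 and 23 in Cox4i1, 4 in Cox7a1 and 12 in Cox7a2, and 1 in Cox8b and 15 in Cox8a. In each of these 3 pairs the restricted isoform had fewer than its partner. Not every pair differed so much. Within 500 bp of the 5′ end Cox7b2 had 24 CpG and its partner Cox7b 26, and Cox6b2 had 36 and Cox6b1 47.

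The binding motifs of NRF1, YY1 and ERR are shown because a larger share of these promoters than of open promoters in general held them. Below are all members with the NRF1 letters in the 150 bp about the centre of the promoter site, with 10 bases on each side and the motif CGCATGCG in capitals.
Cycs (minus strand, chr6:50566613-50566640): catgctagctCGCATGCGcgcgcacaaa
Ndufaf5 (plus strand, chr2:140170653-140170680): gtcccgttggCGCATGCGcctaatagaa
Cox6a1 (minus strand, chr5:115349102-115349129): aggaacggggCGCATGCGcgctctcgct
Uqcr11 (minus strand, chr10:80406809-80406836): atcgccttcaCGCATGCGctatacgtct
Atp5g2 (minus strand, chr15:102671071-102671098): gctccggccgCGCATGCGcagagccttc
Atp5k (minus strand, chr5:108434431-108434458): ttcactgcggCGCATGCGcctttctggc
Atp5l (minus strand, chr9:44920966-44920993): aaaccaataaCGCATGCGcatttccccc
Ndufa11 (plus strand, chr17:56717693-56717720): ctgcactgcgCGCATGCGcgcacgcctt
Ndufa8 (minus strand, chr2:36049330-36049357): tcgctggagaCGCATGCGcagatggtac
Cox6c (minus strand, chr15:35938170-35938197): tcgactcttgCGCATGCGtgctgctgga

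The members with the YY1 letters AAGATGGCG, or the reverse complement CGCCATCTT, follow in the same form. In Atp5j2, Ndufc1, Ndufa9 and Ndufs4 the ATG within the motif is the annotated start codon of the gene.
Atp5j (minus strand, chr16:84835046-84835074): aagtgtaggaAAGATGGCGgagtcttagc
Uqcrh (minus strand, chr4:116075350-116075378): acccgcgggcCGCCATCTTgaagaggtca
Uqcrh (minus strand, chr4:116075396-116075424): cctcgggcgcCGCCATCTTggggaggtgc
Atp5j2 (minus strand, chr5:145191500-145191528): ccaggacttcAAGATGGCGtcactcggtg
Ndufc1 (minus strand, chr3:51408915-51408943): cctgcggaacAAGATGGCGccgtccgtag
Ndufa9 (minus strand, chr6:126849097-126849125): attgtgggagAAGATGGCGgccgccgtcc
Ndufs4 (minus strand, chr13:114388041-114388069): tgcctacaggAAGATGGCGgcggtctcaa

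The ERR letters CAAGGTCA were found in Sdhd and Atp5g3, in both cases on the strand opposite to the gene, so that the reverse complement appears in capitals.
Sdhd (minus strand, chr9:50603796-50603823): ggttgtagagTGACCTTGagccctcgaa
Atp5g3 (minus strand, chr2:73911361-73911388): tgttacaaagTGACCTTGagcgtcttcc

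Promoters of the respiratory chain genes were open almost throughout. Of the 96 models, 89 (92.7%) had a shared promoter peak, against 68.5% of all protein-coding genes. A shared promoter hotspot, a wider region of raised cutting, was present at 90 models (93.8%) against 69.2% of all genes. Hotspots carry a −log10 q-value that the files cap at 100, and 89 members (92.7%) had a promoter hotspot of 100 in both replicates, against 59.5% of all genes. If other annotated starts were set aside and the outermost 5′ end alone was used, 86 members (89.6%) were open against 63.0% of all genes. Cox7a2l, a factor of respiratory supercomplexes, and the ATP synthase gene Atp5d were among the members open only at another annotated start.

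Scores of the members were high and close together. The median score was 129 in replicate 1 (n = 93 with a peak) and 112 in replicate 2 (n = 89), against 120 and 101 over all genes with a promoter peak. From the lower to the upper quartile the members' scores spanned 119 to 135 in replicate 1 and 103 to 120 in replicate 2. Over all genes with a promoter peak the same range was 89 to 133 in replicate 1 and 72 to 117 in replicate 2, so that the members were set apart more at the low end than at the high end. The strongest promoter peak lay in the highest 5% of the peak list for 75 members (78.1%) in replicate 1 and 70 (72.9%) in replicate 2. Among all genes the shares were 40.1% in replicate 1 and 35.1% in replicate 2.

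The open sites sat at the start sites. Relative to the TSS, with negative positions upstream, the median site centre was at −32.5 bp, with quartiles of −68.5 and −5.5 bp, against a median of −38.5 bp over all open genes. For 75 of 89 open members (84.3%) the centre was within 100 bp of a TSS, against 70.2% of all open genes. Promoter hotspots had median widths of 1156 bp in replicate 1 and 974 bp in replicate 2, against 1097 and 851 bp over all genes with one.

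CpG number differed as well. Within 500 bp of the 5′ end the members had a median of 56 CpG dinucleotides against 41 over all genes, and the open members had 57 against 57 over all open genes. Members with 45 to 69 CpG, which is their own range from lower to upper quartile, were open in 51 of 51 cases, and so were 94.5% of all genes in that range. The share of all genes that was open climbed with CpG number, and 78 of the 96 members fell in the groups by CpG number where it was above 90%. CpG was counted about the outermost 5′ end only, whereas a gene could be open at any annotated start. Cox7a2l, the open member with the fewest CpG (7), was open at another start.

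**Figure D1:**
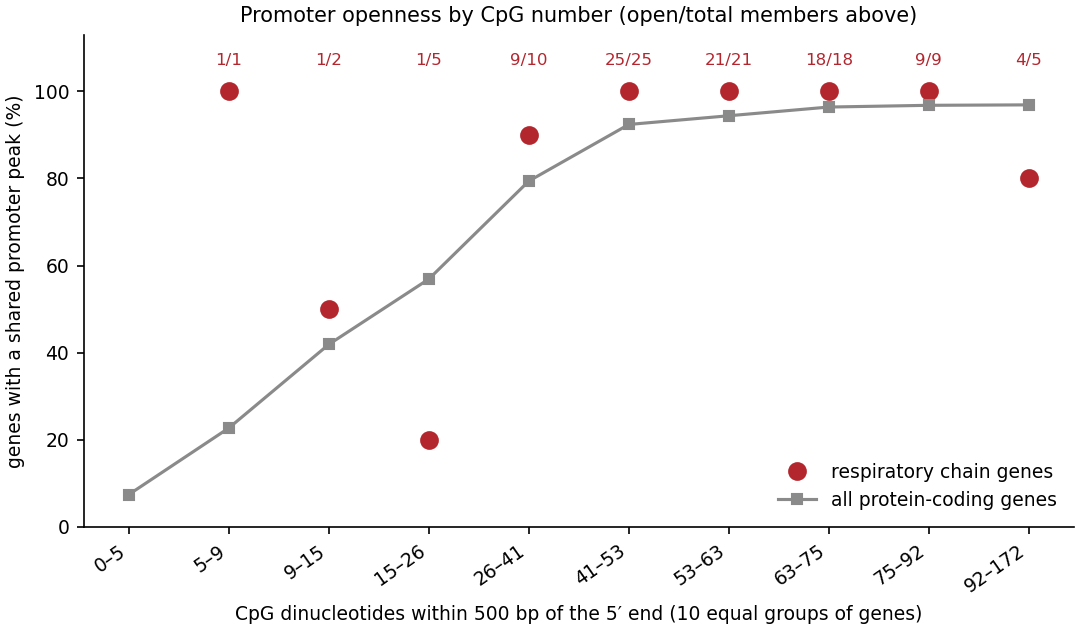
Share of genes with a shared promoter peak (vertical axis, %) in 10 equal groups of all protein-coding genes ordered by CpG number within 500 bp of the 5′ end (horizontal axis). Openness is taken at any annotated start, CpG number about the outermost 5′ end only. Red points are the respiratory chain genes, with open and total members above them, and grey squares are all protein-coding genes, which go from 7.43% to 96.9%; the lowest group held 0 members.

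Complex I takes electrons from NADH and has 7 nuclear core subunits, among them those that carry its flavin and iron-sulfur clusters, a larger set of accessory subunits, and assembly factors that are not part of the finished enzyme. Of its 44 gene models 43 were open, and the median scores were 124.5 (replicate 1) and 110 (replicate 2). The 7 core genes had the higher medians, 141 and 125, against 123 and 107 for the 29 accessory genes and 124.5 and 106.5 for the 8 assembly factors. The highest mean ranks belonged to the accessory subunit Ndufa2 (146 and 133), the flavin-binding core subunit Ndufv1 (144 and 135) and the iron-sulfur core subunit Ndufv2 (143 and 131). Among open genes of complex I the lowest ranks belonged to the assembly factor Ndufaf1 (92 and 76) and the accessory subunit Ndufb11 (108 and 76). Core and accessory genes overlapped widely: core scores spanned 120 to 145 in replicate 1, and accessory scores 53 to 146.

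Ndufa13, an accessory subunit also known as GRIM-19, was the only member of complex I without a shared promoter peak. Within 500 bp it had a peak of 53 in replicate 1 and none in replicate 2. Strong shared peaks flanked it: 125 and 122 at an edge distance of 658 and 678 bp upstream, and 127 and 107 at 753 and 793 bp downstream of the start. Its promoter hotspot was 100 in both replicates. With RefSeq start sites in place of GENCODE's, an alternative added after seeing the data, Ndufa13 was open. Within 1000 bp of its GENCODE start it was open as well, and from replicate 1 alone it was open within 500 bp. Its status thus depended on the annotated start, the width and the need for both replicates.

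Complex II oxidises succinate and is the only complex made of nuclear subunits alone. All 4 genes were open. Sdhb, the iron-sulfur subunit, had scores of 144 and 117. Sdhd, a membrane anchor, had 132 and 122. Sdhc, the other membrane anchor, had 128 and 108. Sdha, the flavoprotein, had 124 and 109. The order of the genes differed between replicates: Sdhb led in replicate 1 and Sdhd in replicate 2 while Sdhc and Sdha were the lower pair in both.

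Complex III passes electrons from ubiquinol to cytochrome c, and its 9 nuclear genes were open, with medians of 130 and 116. The hinge protein Uqcrh (135 and 120), the core protein Uqcrc2 (132 and 121) and the Rieske iron-sulfur protein Uqcrfs1 (130 and 118) ranked highest. The lowest were Uqcrb (130 and 105), a subunit near the quinone site, and the core protein Uqcrc1 (119 and 96). Cyc1, which carries cytochrome c1, had 128 and 110. Cycs, the somatic cytochrome c that carries electrons from complex III to complex IV, had 135 and 120.

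Complex IV reduces oxygen to water. Its 12 genes other than the restricted isoforms were open, with medians of 131 and 113. Cox8a (142 and 125), Cox5a (137 and 124) and Cox7a2 (141 and 117) ranked highest, and Cox7b (119 and 100) and Cox6c (96 and 81) lowest. Cox6c was the lowest of these 12 in both replicates, under Cox7b by a wider gap than any between neighbours above it.

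Complex V has a catalytic F1 head, a membrane Fo part with a ring of c subunits, and a stalk between them. Of its 17 gene models 16 were open, with medians of 131.5 and 120.5. Atp5g1, which encodes the c subunit of the ring, had the highest mean rank of all members (147 and 136), followed within the complex by the F1 subunit Atp5d (146 and 133) and the stalk subunit Atp5j (144 and 126). The c ring genes Atp5g2 (128 and 115) and Atp5g3 (131 and 121), which encode the same mature protein as Atp5g1, scored lower in both replicates. At the other end stood Atp5mpl (116 and 97), a small membrane subunit, and Atp5a1 (115 and 98), the F1 alpha subunit. The 1 model of complex V without a promoter peak was a second Atp5o model of 242585 bp, whereas the Atp5o model of the usual start had 126 and 121.

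**Figure D2:**
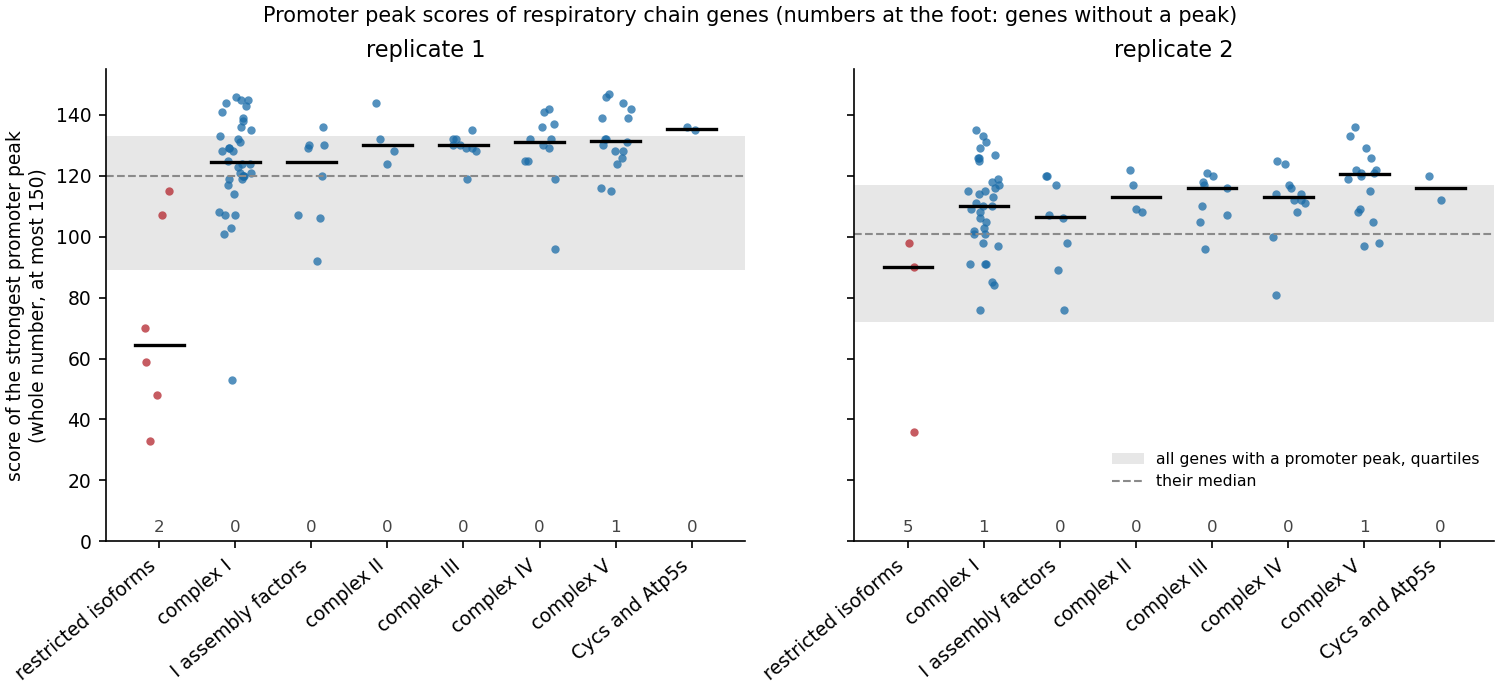
Score of the strongest promoter peak (vertical axis, whole number of at most 150) of each respiratory chain gene in replicate 1 (left) and replicate 2 (right), by group, with the group's median as a black bar. Red points are the tissue-restricted isoforms, numbers at the foot count the genes without a promoter peak, and the grey band and dashed line give quartiles and median of all genes with a promoter peak; medians of the complexes lie above the dashed line in both replicates.

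Tissue-restricted isoforms differed from the other members. Of the 8 isoforms 3 were open (37.5%), against 86 of the other 88 models, and the median scores were 64.5 (replicate 1, n = 6 with a peak) and 90 (replicate 2, n = 3), against 129 and 113.5 for the others. The isoforms had 14 to 36 CpG within 500 bp of the 5′ end, and of all genes with that CpG number 62.4% were open. The choice of these 8 genes as restricted was made from their known expression, with earlier results of these data known.

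Cox4i2, the isoform of subunit 4 that is known for its expression in lung and its response to low oxygen, was open but weak. Its scores were 70 and 36, against 136 and 114 for its ubiquitous partner Cox4i1. Its promoter hotspots had −log10 q-values of 2.35 and 2.10 and widths of 186 and 168 bp. Every other open member had hotspots of 100 in both replicates, so that Cox4i2 was the weakest open promoter of the group on peaks and hotspots alike. Taking only peaks above the median score of their list, Cox4i2 was no longer open. Its site was also 1 of 3 member sites with the E-box letters CACGTG, which can be read in the sequence printed above.

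Cox7a1, the heart and skeletal muscle isoform of subunit 7a, was open, with 107 and 98, against 141 and 117 for Cox7a2. The peak centre lay 33.5 bp upstream of the start in both replicates, and the hotspots were 578 and 467 bp wide. Cox6b2, known as the testis isoform of subunit 6b, was open, with 115 and 90, against 125 and 111 for Cox6b1. The partner's score was higher by 10 and 21 points here, and by 34 and 19 points for Cox7a2 over Cox7a1. The Cox6b2 promoter had 36 CpG against 47 for Cox6b1, and that of Cox7a1 had 19 against 59 for Cox7a2.

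Cox6a2, the heart and skeletal muscle isoform of subunit 6a, had a peak of 33 in replicate 1 and none in replicate 2, against 132 and 114 for Cox6a1. Cox8b, the muscle and brown fat isoform of subunit 8, had a peak of 59 in replicate 1 and none in replicate 2, against 142 and 125 for Cox8a. Ndufa4l2, a relative of Ndufa4 that is induced at low oxygen, had 48 in replicate 1 and none in replicate 2, against 125 and 108 for Ndufa4, which itself belongs to complex IV despite its name. The testis isoforms Cox7b2 and Cox8c had no promoter peak in either replicate, against 119 and 100 for Cox7b and 142 and 125 for Cox8a.

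The 3 peaks of Cox6a2, Cox8b and Ndufa4l2 were present in the library with more peaks and missing from the other. They were weak for promoter peaks, under the lower quartile of 89 over all genes with one in replicate 1. Among all peaks of that list their percentiles were 21.7, 61.6 and 47.8. Counted from replicate 1 alone, 6 of the 8 isoforms had a promoter peak (75%), against 72.3% of all genes, so that their share was no lower than that of all genes there. Counted from replicate 2 alone, 3 of 8 had one (37.5%), against 69.2% of all genes. Shared peaks lay farther away for some: 84 and 82 at 1909 bp upstream of the Cox6a2 start, 97 and 93 at 1862 and 1882 bp upstream and 86 and 54 at 1789 bp downstream of the Ndufa4l2 start. For Cox8b they lay 2830 and 2910 bp upstream (82 and 70), and for Cox7b2 2340 and 2380 bp downstream (39 and 22). Cox7b2 and Cox7b had nearly the same CpG number, 24 and 26, yet Cox7b2 had no promoter peak and Cox7b was open in both replicates.

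**Figure D3:**
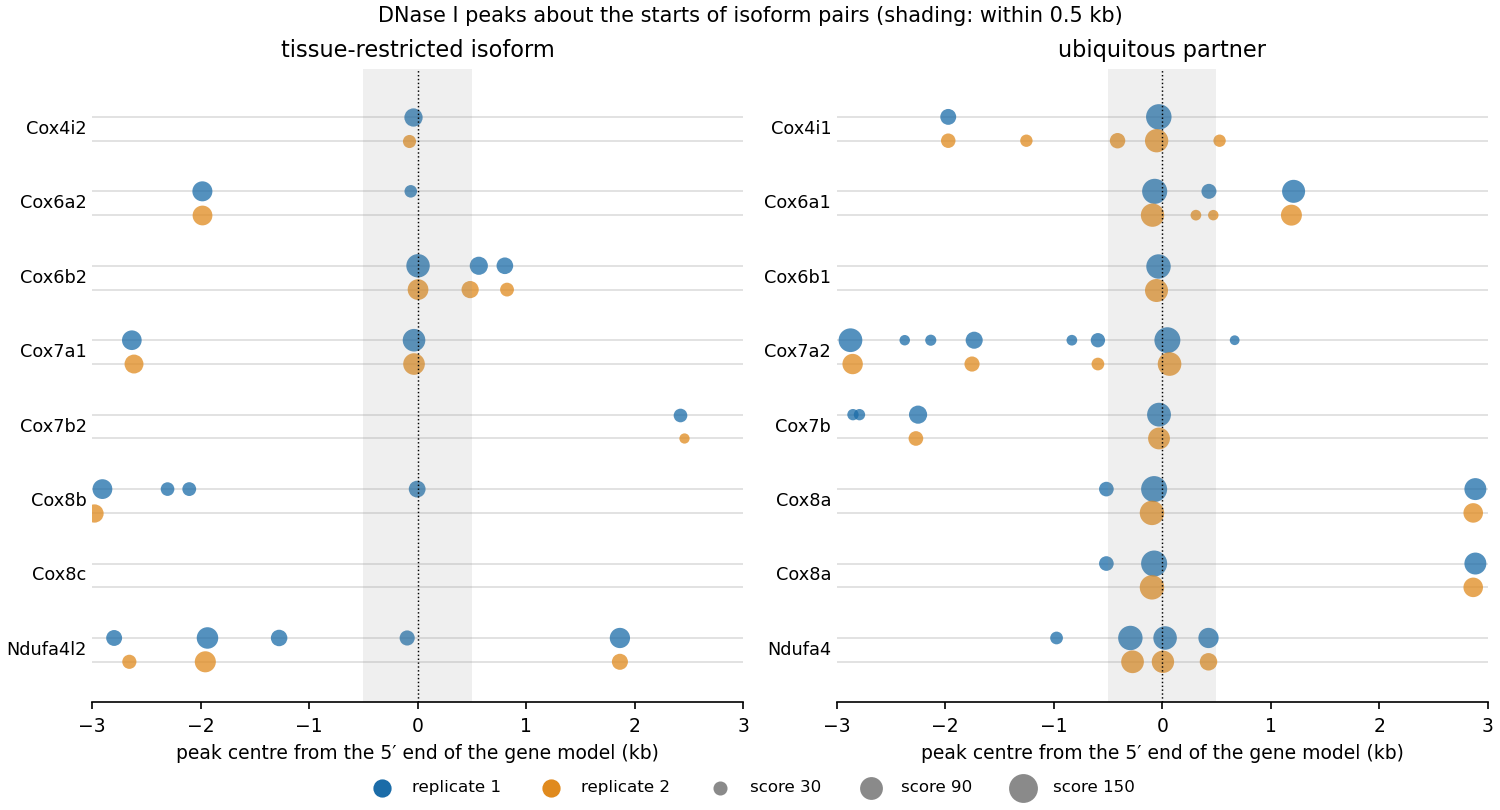
Peaks about the start of each tissue-restricted isoform (left) and its ubiquitous partner (right), with the distance of the peak centre from the annotated gene start on the horizontal axis (kb, negative upstream) and the area of a circle in proportion to the score. Blue is replicate 1 and orange replicate 2, and the shaded strip is the 0.5 kb on either side of the start; each partner has circles of both colours there, while 3 of the 8 isoforms do.

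Markers of muscle were partly open in the same maps. Of 6 cardiac muscle genes 3 were open (Myl2 at 66 and 46, Tnni3 at 80 and 63, Tnnt2 at 67 and 37), with Myh6, Myl7 and Nppa not open. Of 6 skeletal muscle genes only Mylpf was open, at 144 and 140, and Acta1, Ckm, Myh3, Myog and Tnnt3 were not. Mylpf had 71 CpG within 500 bp of the 5′ end, whereas the others had from 6 (Tnnt3) to 29 (Myog). All 4 brown fat genes were open, with Ucp1 weak at 34 and 18, and of 4 testis genes none was open. Prdm16 had 115 CpG, Cidea 56, and Elovl3 and Ucp1 36 each. Of all protein-coding genes 68.5% were open, so these small counts are not by themselves a sign of a cell type. Whether muscle or fat cells in the tissue had a part in the peaks of the restricted isoforms was not tested.

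Agreement between replicates was close for most members. The median log2 ratio of the score of replicate 1 to that of replicate 2 was 0.19 for members (n = 89) against 0.25 over all genes, with member quartiles of 0.15 and 0.25. Cox4i2 had the highest ratio, 0.96, followed by Ndufb11 at 0.51 and the accessory subunit Ndufa8 at 0.36, with scores of 117 and 91. The ratio was lowest for the accessory subunit Ndufa10 (0.00, with 101 and 101), the stalk subunit Atp5o (0.06) and the core subunit Ndufs3 (0.07, with 124 and 118). With 2 libraries no error can be given for a single gene, and the ratio may reflect a different scale in the 2 lists, so it is read only beside that of all genes.

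**Figure D4:**
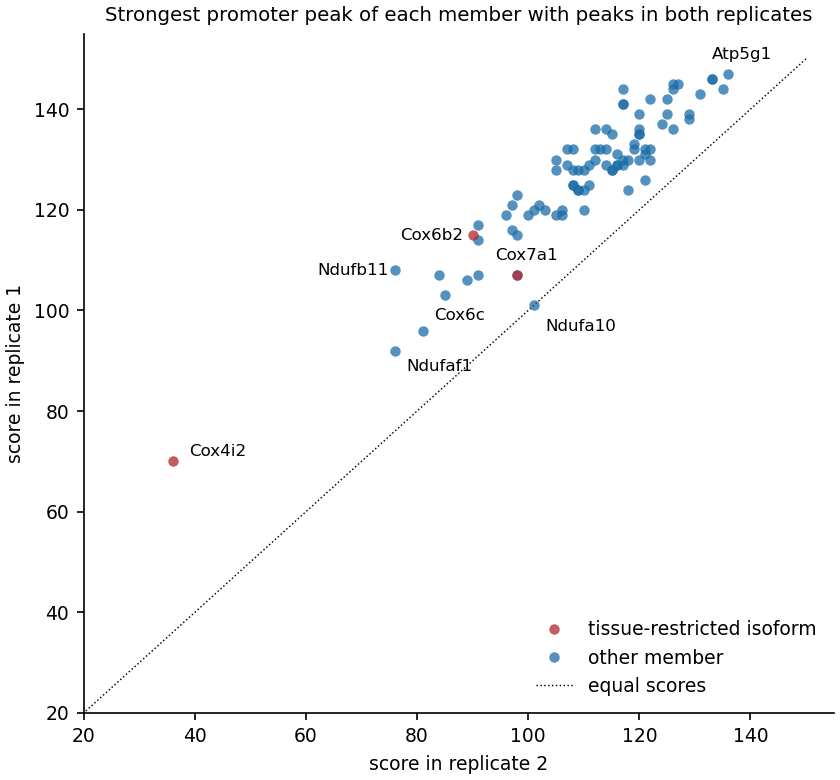
Score of the strongest promoter peak in replicate 1 (vertical axis) against replicate 2 (horizontal axis) for the 89 members with a peak in both, on axes that start at 20. Red points are tissue-restricted isoforms, blue points other members, and the dotted line marks equal scores; 88 points lie above the line, Ndufa10 on it, and Cox4i2 stands apart at 70 and 36.

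Many of these promoters were shared with a neighbour that is read in the other direction. In 33 of 89 open members (37.1%) the site also lay within 500 bp of a TSS of a protein-coding gene on the opposite strand, against 14.8% of all open genes. Ndufa2 shared its site (146 and 133) with Ik, a splicing factor gene, with 99 bp between the nearest starts. Ndufb5, an accessory subunit of complex I, shared a site of 145 and 126 with Mrpl47, a mitochondrial ribosomal protein gene, with 20 bp between starts. Atp5j shared a site of 144 and 126 with Gabpa, which encodes the DNA-binding subunit of GABP, with 31 bp between starts.

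Other shared sites were those of the stalk subunit Atp5h with Kctd2 (142 and 122), of the accessory subunit Ndufv3 with Wdr4 (136 and 126) and of the core subunit Ndufs1 with Eef1b2, a translation elongation factor gene (141 and 117). Sdhd shared its site with Timm8b, a gene of mitochondrial protein import, at 98 bp, and Ndufs6 with the mitochondrial ribosomal gene Mrpl36 at 29 bp. At these sites the openness of the genes of a pair cannot be told apart. Without members whose site lay near a TSS of any other gene, the median log2 ratio was 0.19 (n = 49).

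Of 9 motifs searched in the 150 bp about the site centre on both strands, NRF1, YY1 and ERR had the highest shares relative to all open genes, at 4.48, 4.61 and 8.44 times. These sizes depended on the window. In 300 bp about the site centre they were 4.08, 3.98 and 5.33 times. In 300 bp about the TSS at the 5′ end they were 2.81 times for NRF1, 1.89 for YY1 and 3.71 for ERR, beside 1.83 for CREB/ATF. That window lies mostly upstream of the outermost 5′ end and need not hold the site. It missed the YY1 letters of Atp5j and Atp5j2, whose sites were centred 634.5 and 481.5 bp downstream of that end. The NRF1 letters CGCATGCG, which read the same on both strands, were in 10 of 89 sites (11.2%), against 2.51% of all open genes. The YY1 letters AAGATGGCG were in 6 (6.74%) against 1.46%. The ERR letters CAAGGTCA were in 2 (2.25%) against 0.266%. The 10 sites with NRF1 letters belonged to genes of complexes I, III, IV and V and to Cycs, and complex II had none.

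NRF1 and YY1 letters differed in place. Counted from the TSS nearest to the site, the centre of the NRF1 letters ranged from 237.5 bp upstream in Atp5l to 62.5 bp downstream in Ndufa8. For YY1, Ndufa9 and Ndufs4 had the motif centre 25 bp, Ndufc1 35 bp and Atp5j2 78 bp downstream of the TSS, at the start codon. Atp5j had it 55 bp upstream, and Uqcrh had 2 matches, 293 and 339 bp upstream and on the other strand. Both sites also lay near a TSS of a coding gene on the opposite strand, Gabpa for Atp5j and Lrrc41 for Uqcrh. Among the sites with NRF1 letters the same held for Ndufa8 (Morn5), Ndufa11 (Vmac) and Ndufaf5 (Esf1). To which gene of a pair such letters belong was not tested. The ATG of the motif was an annotated start codon in 4 of 6 members (66.7%), against 34.5% of all open genes with the motif. In these genes the same letters serve the reading frame, and a match is a description of the sequence, not a bound site.

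Of the other motifs, CREB/ATF was somewhat more frequent than among all open genes, NFY about as frequent, and the rest less so in the 150 bp. SP/KLF letters GGGCGG were in 30 sites (33.7%) against 54.3%, ETS/GABP letters CCGGAAGT in 3 (3.37%; Atp5a1, Ndufs1 and Ndufs3) against 6.03%, and E-box letters in 3 (3.37%) against 6.64%. AP-1 letters TGANTCA were in 1 (1.12%; Ndufa5) against 3.1%, NFY letters CCAAT in 26 (29.2%) against 28.4%, and CREB/ATF letters TGACGTCA in 4 (4.49%; Cycs, Ndufa10, Ndufb2 and Uqcrfs1) against 2.69%. For ETS/GABP the direction depended on the window: in 300 bp about the site centre the letters were in 9 members (10.1%) against 7.86% of all open genes, and in 300 bp about the TSS at the 5′ end in 6 (6.74%) against 6.47%.

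**Figure D5:**
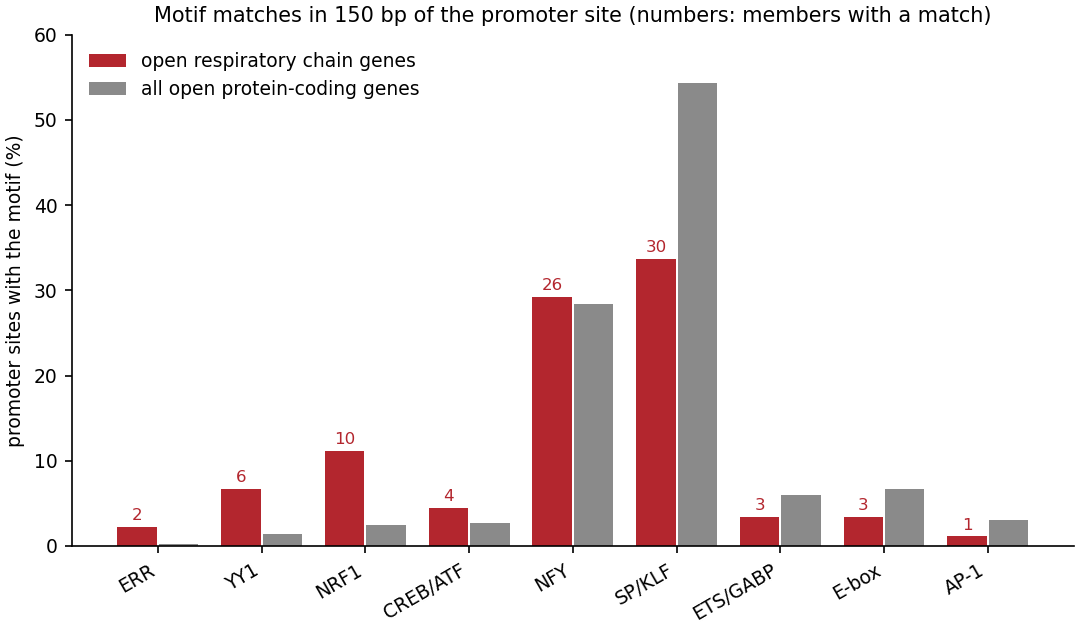
Share of promoter sites with each motif (vertical axis, %) in the 150 bp about the site centre, for the 89 open respiratory chain genes (red, with the number of members above the bar) and all 15032 open protein-coding genes (grey). Motifs run from the highest ratio of red to grey on the left, with ERR, YY1 and NRF1 ahead of CREB/ATF (4.49% against 2.69%) and NFY (29.2% against 28.4%), and SP/KLF has 33.7% against 54.3%.

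Sites away from promoters were no more numerous than elsewhere. A distal site is a shared site more than 1000 bp from any TSS of any gene and within 50 kb of the gene. Members had a median of 7 against 8 over all genes, and open members 7 against 10 over all open genes. The genes are short, with a median length of 7333 bp against 17425 bp, and counted from TSSs instead of gene ends the medians were 6.5 and 7. Distal sites were absent at Cox7c, Ndufa4 and Uqcrb (3 of 96), while 11.1% of all genes had none.

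Cox4i2, with the weakest open promoter, had the most distal sites, 34. Of these 1 lay inside the gene, 12 were nearest to a TSS of Id1, an inhibitor of basic helix-loop-helix factors, 11 to Gm23802 and 5 to Bcl2l1, an inhibitor of apoptosis. The site inside Cox4i2 scored 97 and 66, and the strongest of the 34 in replicate 1 scored 136 and 110 and lay 12841.5 bp from the start of Gm23802, while the strongest in replicate 2 scored 130 and 114. Ndufaf2, an assembly factor of complex I, had 19, of which 7 were nearest to its own starts. This gene is 155909 bp long, and counted within 50 kb of its TSSs it had 9. Atp5d, Cox4i1 and Ndufc2 had 16 each, of which 7, 9 and 7 were nearest to Cirbp, Gm33142 and Alg8. The second Atp5o model had 32, within its 242585 bp and the flanks. Its count is set by that length, and the model is left out of the ranking. Which gene a distal site acts on was not measured.

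Genes that work with the respiratory chain were open to a like extent. Of 38 assembly factors with other names 37 were open, with medians of 133 and 117, and Sdhaf1, an assembly factor of complex II, was not. Of all protein-coding genes 68.5% were open, but over 90% in the groups from 41 CpG up, where most of these assembly factors also fell. All 16 regulators listed were open, with medians of 136.5 and 116.5, among them Nrf1 (136 and 116), Gabpa (144 and 126), Yy1 (142 and 124), Esrra, which encodes ERR alpha (141 and 126), and Tfam, the packaging factor of mitochondrial DNA (121 and 97). Ppargc1a, which encodes PGC-1alpha, had 111 and 91, and Esrrg, which encodes ERR gamma, had 82 and 69, the lowest of the regulators. Of the adenine nucleotide carriers, Slc25a4 (132 and 111) and Slc25a5 (117 and 104) were open and the testis form Slc25a31 was not, nor was Cyct, the testis cytochrome c.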

How the data were processed

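DNase-seq of newborn mouse lung was analysed from the peak and hotspot lists that the authors deposited for each of 2 replicates. The assembly was mm10 per the sample labels. Peaks carry a score given by the authors, and hotspots a −log10 q-value capped at 100 per the deposited lists. Aligner, caller and depth are not given in the sources used here.

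Of the peaks, 276480 and 188498 lay on chromosomes 1 to 19, X and Y after 26 and 23 duplicates were removed. Overlapping peaks were merged into 290376 sites, of which 161051 held both replicates. TSSs came from GENCODE M21. No statistical test was run: counts and medians stand beside those of all protein-coding genes. The steps were tested on simulated intervals. Named genes were the extremes of each complex by mean rank, the restricted isoforms with partners, members not open, and extremes of distal sites, ratio and shared promoters. Members, lists and motifs were chosen with earlier results of these data known. Python 3.11.15, numpy 2.4.6, pandas 2.3.3 and pysam 0.24.0 were used.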

Additional observations from a re-analysis of the deposited data

How the results depend on the processing

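Of 71 alternative values, 57 stayed close to the main value. The bound was 1.5 times for counts and for medians of distal sites, and 0.1 for the log2 ratio. For median scores it was the standard deviation of the 2 replicate medians, which holds the difference in scale between the lists. The bounds for scores and for the log2 ratio were wider than the gaps between members and all genes. A value that stayed close there therefore says little about those gaps. Set against all genes, 3 results turned: the restricted isoforms without replicate 2, ETS/GABP letters in both wider windows, and NFY letters about the site centre (33.7% against 37.1%). Open members numbered 86 to 93 under the settings tried. The number of open tissue-restricted isoforms was 3 without replicate 1 (37.5% against 69.2% of all genes) and 6 without replicate 2 (75% against 72.3%). The median of distal sites was 9 without replicate 1, 13 without replicate 2, 3.5 within 25 kb, 14 within 100 kb and 4 with peaks above the median score, against 9, 13, 4, 15 and 4 over all genes. In 300 bp about the TSS at the 5′ end, ETS/GABP letters were in 6 open members (6.74% against 6.47% of all open genes), ERR in 4 (4.49% against 1.21%), E-box in 8 (8.99% against 9.59%) and AP-1 in 4 (4.49% against 5.18%). In 300 bp about the site centre, ETS/GABP letters were in 9 (10.1% against 7.86%), YY1 in 12 (13.5% against 3.39%), SP/KLF in 50 (56.2% against 67.1%), E-box in 8 (8.99% against 10.1%) and AP-1 in 2 (2.25% against 5.01%). The 300 bp about the site centre contain the 150 bp, so that counts there cannot be lower by construction. The 300 bp about the TSS lie at another place, and NRF1 letters (8 against 10 in the 150 bp) and YY1 letters (4 against 6) were fewer there. With RefSeq start sites, 94 of 96 models matched by symbol, Atp5f1 and Atp5s did not, and 90 were open, among them Ndufa13, Ndufa4l2 and the second Atp5o model, which takes the start sites of its symbol. No paired analysis was possible because the series has 1 group. Unknown depth, 2 libraries and a score of unstated meaning limit every value.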
